A study of Mus musculus with 24 samples.

Results

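Zfp281 and Zmym2, 2 genes for transcriptional repressors, were followed in all 24 poly(A) RNA libraries of the study. They were taken by symbol from both deposited tables of normalized gene counts, which list 23095 genes for the J1 cells and 25476 for the tet-off cells. Each of the 12 groups holds 2 libraries, and whether the replicates are separate derivations is not given in the sources used here, so the p-values measure the spread between these samples.

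The J1 table compares 3 states of wild-type J1 mouse embryonic stem cells (ESCs): ESCs in serum and LIF medium with the 2i inhibitors CHIR99021 and PD0325901, D-EPSCs (extended pluripotent stem cells made from them with LIF, CHIR99021, dimethindene and minocycline) and L-EPSCs (expanded potential stem cells made with LIF and 6 inhibitors, CHIR99021, PD0325901, A-419259, XAV939, JNK inhibitor VIII and SB203580). The tet-off table holds 3 knock-in lines, Oct4-cKO, Sox2-cKO and Nanog-cKO. In each of them the endogenous gene is deleted and a transgene that doxycycline (Dox) switches off supplies the factor, so controls without Dox also lack the endogenous gene. For each line there are ESCs without Dox, L-EPSCs without Dox and L-EPSCs with Dox. The medium of the tet-off ESCs is not given separately in the sources used here. Each line is 1 established line, Dox-treated ESCs were not analysed here, and the Dox time before RNA extraction is not given in the sources used here.

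Zfp281 encodes a zinc finger factor that binds G-rich DNA. In ESCs it is known to recruit the NuRD co-repressor to Nanog, to work with Tet1 at Tet2, and to act on Nodal signalling and on de novo DNA methyltransferases as cells leave naive pluripotency. Zmym2, also called Znf198, encodes a protein with MYM-type zinc fingers that binds the LSD1-CoREST-HDAC co-repressor and the PRC1.6 Polycomb complex. Both proteins are known to hold back the 2C state, a rare totipotent-like state in ESC cultures that resembles the early cleavage embryo and is marked by Zscan4 genes. The study singled out Zfp281 for its motif in open chromatin of D-EPSCs, and Zmym2 as an EPSC signature gene partly by its RNA in these J1 libraries. It also pointed to the RNA of Zfp281 in them, so the J1 differences of both genes are given as descriptions. The tet-off lines had no part in that choice by the study. The genes and gene lists followed here were chosen with earlier results of these data known.

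In the NCBIM37 build Zfp281 (ENSMUSG00000041483) lies at chr1:138521478-138526630 on the plus strand, with 4937 exonic bases in 2 exon blocks. Zmym2 (ENSMUSG00000021945) lies at chr14:57505490-57579182 on the plus strand, with 5004 exonic bases in 25 blocks over 73.7 kb. No annotated gene overlaps either of them. The closest gene to Zfp281 is Gm17718, which ends 251 bases before it on the minus strand. The family member Zmym5 lies 74.9 kb before Zmym2, also on the minus strand.

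The start regions of both genes are shown because Zfp281 is itself a DNA-binding factor. They come from the RefSeq promoter table of GRCm38.p6, from 250 bases before to 50 bases after the start, and both strands were searched for CCTCCCCC, the G-rich core of the known Zfp281 motif (GGGGGAGG on the other strand). The Zfp281 window (chr1:136624651-136624950, plus strand) has a GC content of 70.7% and holds no match. Of the 2 overlapping Zmym2 windows, the downstream one (chr14:56886593-56886892, plus strand) holds 1 match, printed in capitals, and the upstream one holds none. A match stands in 8.29% of all 32851 windows and in at least 1 window of 9.28% of the 27025 genes with one, so it is a description of these letters only.
Zfp281: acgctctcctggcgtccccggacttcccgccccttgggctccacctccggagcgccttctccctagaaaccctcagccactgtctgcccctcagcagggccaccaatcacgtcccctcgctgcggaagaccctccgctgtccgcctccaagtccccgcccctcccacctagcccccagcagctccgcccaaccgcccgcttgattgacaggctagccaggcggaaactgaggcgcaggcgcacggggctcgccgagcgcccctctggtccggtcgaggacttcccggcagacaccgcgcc
Zmym2: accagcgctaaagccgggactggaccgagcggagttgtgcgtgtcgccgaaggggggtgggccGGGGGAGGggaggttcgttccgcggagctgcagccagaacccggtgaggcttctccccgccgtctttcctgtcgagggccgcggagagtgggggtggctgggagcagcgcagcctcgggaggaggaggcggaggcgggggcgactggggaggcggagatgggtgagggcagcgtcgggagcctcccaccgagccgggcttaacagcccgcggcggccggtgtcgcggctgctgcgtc

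The libraries hold between 11612919 and 15069899 reads on genes in the J1 table and between 10807631 and 14798984 in the tet-off table. Behind the values below stand 1446 to 1904 reads per J1 library for Zfp281 and 937 to 1442 for Zmym2. In the tet-off libraries the range is 320 to 1831 reads for Zfp281 and 1058 to 1875 for Zmym2. The labels were checked on the switched genes, whose reads include those of the transgene. With Dox, Pou5f1 (Oct4) fell by 5.19 on the log2 scale in the Oct4-cKO L-EPSCs. Sox2 fell by 6.57 in the Sox2-cKO L-EPSCs, and Nanog fell by 1.52 in the Nanog-cKO L-EPSCs. The 2 tables were normalized separately, so tests were made only within a table.

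In J1 cells both genes were higher in EPSCs than in ESCs. Zfp281 had normalized counts of 1376 and 1334 in the ESC libraries, 1944 and 1791 in D-EPSCs and 1919 and 1918 in L-EPSCs. All 4 EPSC libraries lay above both ESC libraries, and the D-EPSC and L-EPSC ranges overlapped. Zmym2 had 917 and 864 in ESCs, 1327 and 1412 in D-EPSCs and 1457 and 1525 in L-EPSCs. It too was lowest in the ESC libraries, and here the 2 kinds of EPSC did not overlap.

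**Figure D1:**
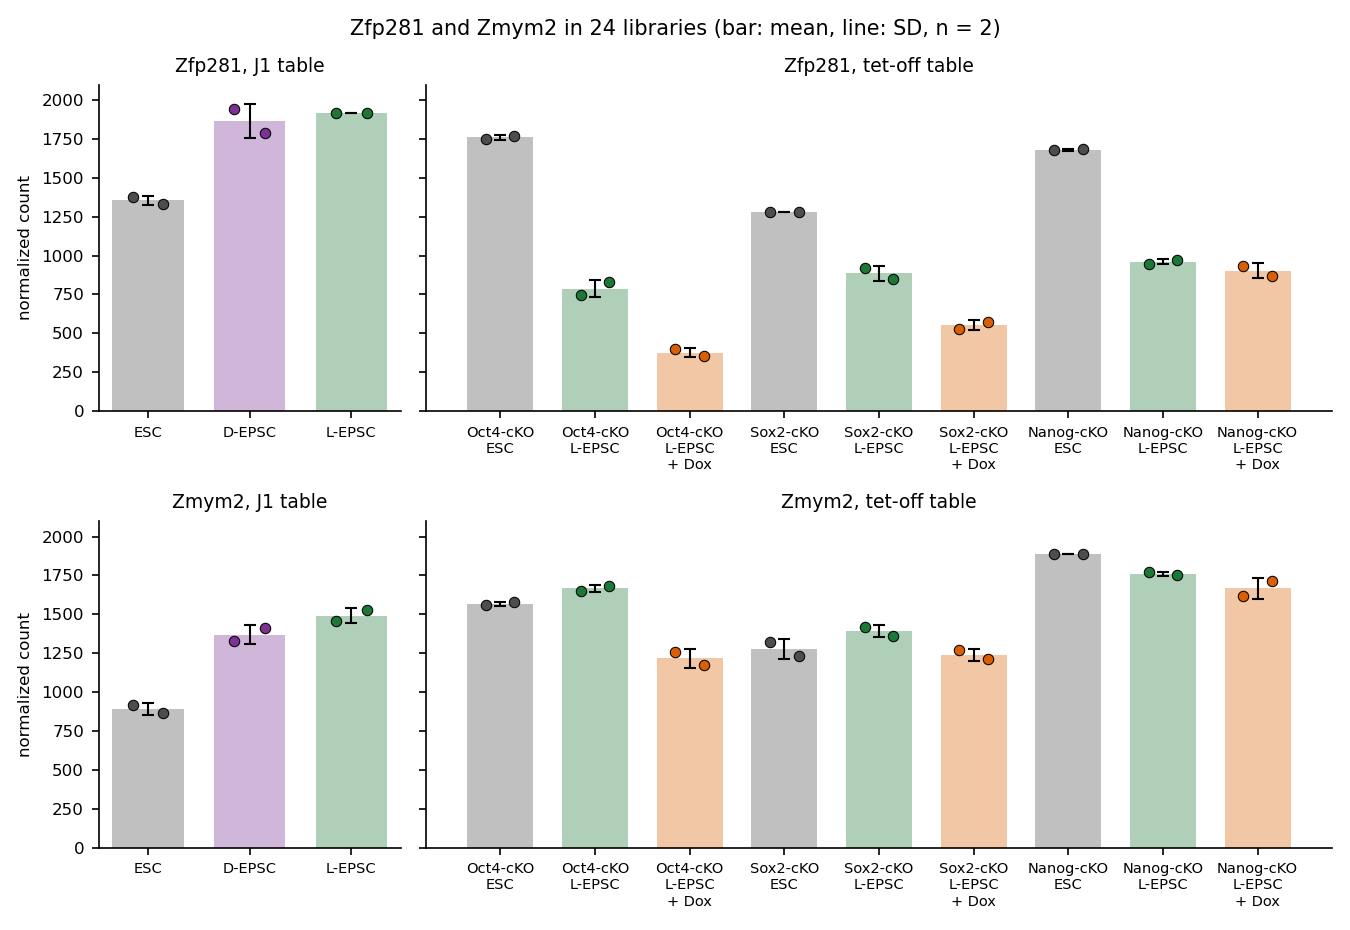
Normalized counts of Zfp281 (top) and Zmym2 (bottom) in the 3 J1 groups (left) and the 9 tet-off groups (right). Points are libraries, bars are means and lines are the SD (n = 2). Zfp281 was lowest in Dox-treated Oct4-cKO L-EPSCs, at 355 and 397, and Zmym2 in J1 ESCs, at 864 and 917, and the 2 tables were normalized separately.

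The test was limma's on log2(normalized count + 1) values, and a gene was called where its adjusted p was below 0.05 and its log2 difference larger than 0.6 (larger than 1 for Dox). Both EPSC comparisons use the same ESC libraries. The Zmym2 levels of D-EPSCs were higher than those of ESCs by 0.62 (SE 0.052) and those of L-EPSCs by 0.74, beyond the threshold in both comparisons (adjusted p = 5.2e-05 and 1.9e-05). Of all genes tested, 20.7% were called between D-EPSCs and ESCs and 20.3% between L-EPSCs and ESCs, and since both genes were singled out with the RNA of these libraries in view, nothing is read from their J1 values. Without D-EPSC replicate 2 or without ESC replicate 2 the D-EPSC difference was 0.58, inside the threshold. For Zfp281 the D-EPSC difference of 0.46 (SE 0.047, adjusted p = 0.00014) and the L-EPSC difference of 0.50 (adjusted p = 8.5e-05) were larger than the replicate spread but inside the fold threshold, so neither was called. As a share of the ESC mean, Zfp281 stood at 138% in D-EPSCs and 142% in L-EPSCs, and Zmym2 at 154% and 167%.

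Between L-EPSCs and D-EPSCs neither gene was called, in a comparison that calls 13.4% of all genes. The log2 difference was 0.040 for Zfp281 (adjusted p = 0.57) and 0.12 for Zmym2 (adjusted p = 0.12). The Zfp281 difference turned to -0.019 without D-EPSC replicate 2.

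Markers of other cells also differed between the J1 groups. The summed normalized counts of 10 fibroblast markers, all of them above 3 reads in at least 1 library of each group, were 92509 and 94689 in the ESC libraries, 60051 and 60335 with the D-EPSC medium and 21331 and 21935 with the L-EPSC medium. The labels describe culture on mouse embryonic fibroblast feeders or on gelatin, and the study's methods state that both EPSCs were kept without feeders before sequencing. The 10 macrophage markers, also all above 3 reads, summed to 2774 to 2791 in ESC, 22831 to 23060 in D-EPSC and 17247 to 17402 in L-EPSC libraries. The 10 trophoblast markers summed to 1511 to 1527 in ESC, 197 to 198 in D-EPSC and 795 to 823 in L-EPSC libraries, with Elf5 at the floor of 3 reads per library in each group. The 8 primitive endoderm markers summed to 966 to 993, 1822 to 1858 and 1553 to 1649 in the same order, with Sox17 and Foxa2 at that floor in ESCs and D-EPSCs. Such sums follow their most abundant markers. Against ESCs, 3 fibroblast markers were called higher and 4 lower in D-EPSCs, and 7 lower in L-EPSCs. For macrophages 10 and 8 were called higher. For trophoblast 5 were called lower in D-EPSCs, and 3 higher and 3 lower in L-EPSCs. For primitive endoderm 3 were called higher and 1 lower in D-EPSCs, and 4 higher in L-EPSCs. These comparisons call 20.7% and 20.3% of all genes. The part of these cells in the J1 differences of Zfp281 and Zmym2 was not tested, and in bulk RNA fewer cells of a type and less RNA per cell cannot be told apart. The 8 pluripotency markers, Pou5f1 and Sox2 among them, were above 3 reads in all 12 groups of both tables, and in J1 cells they summed to 69761 to 70112 in ESC, 38214 to 38672 in D-EPSC and 46846 to 47492 in L-EPSC libraries. The tet-off table lists 9 of the 10 fibroblast markers, which summed to between 223 and 633, with Col3a1 and Lum at the floor of 3 reads per library in every group. It lists 9 of the 10 macrophage markers, which summed to between 232 and 790, with Ptprc, Adgre1, Tyrobp and C1qa at that floor in every group.

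In the tet-off lines Zfp281 was lower in L-EPSCs than in ESCs. The Oct4-cKO ESC libraries had 1749 and 1770 normalized counts and the untreated L-EPSC libraries 748 and 827. The Sox2-cKO ESCs had 1278 and 1281 and the L-EPSCs 921 and 851. The Nanog-cKO ESCs had 1676 and 1686 and the L-EPSCs 949 and 972. In each line both L-EPSC libraries lay below both ESC libraries, and the L-EPSC mean was 44.8% of the ESC mean in Oct4-cKO, 69.3% in Sox2-cKO and 57.1% in Nanog-cKO cells.

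Zfp281 fell by 1.16 on the log2 scale in the Oct4-cKO line (SE 0.065, adjusted p = 2.7e-10) and by 0.81 in the Nanog-cKO line (adjusted p = 2.8e-08). In the Sox2-cKO line the difference of -0.53 (adjusted p = 6.2e-06) was larger than the replicate spread and inside the fold threshold. Zfp281 was thus called in 2 of 3 lines, where 28.4%, 19.6% and 26.9% of all genes were called in the Oct4-, Sox2- and Nanog-cKO lines. The J1 and tet-off comparisons share no library. Of 20812 genes tested in both tables, 19.0% were higher in J1 L-EPSCs than in J1 ESCs by adjusted p alone, and 10.8% were lower after conversion in all 3 tet-off lines. Zfp281 is 1 of 712 genes with both, out of the 3957 and the 2252 genes behind these shares. Of the 4457 genes lower in J1 L-EPSCs, 665 were lower in all 3 tet-off lines.

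Zmym2 stayed near its ESC level in the same conversions. The Oct4-cKO ESCs had 1557 and 1578 and the L-EPSCs 1651 and 1684, the Sox2-cKO ESCs 1323 and 1233 and the L-EPSCs 1417 and 1364, and the Nanog-cKO ESCs 1886 and 1890 and the L-EPSCs 1769 and 1751. The L-EPSC libraries were the higher ones in the Oct4- and Sox2-cKO lines and the lower ones in the Nanog-cKO line, with no overlap in any of them. The log2 differences of 0.089 (SE 0.046, adjusted p = 0.14), 0.12 (adjusted p = 0.0496) and -0.10 (adjusted p = 0.095) were all inside the threshold, and Zmym2 was called in none of the 3 lines. The L-EPSC means were 106%, 109% and 93.2% of the ESC means, against 167% in J1 cells, whose table was normalized separately.

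**Figure D2:**
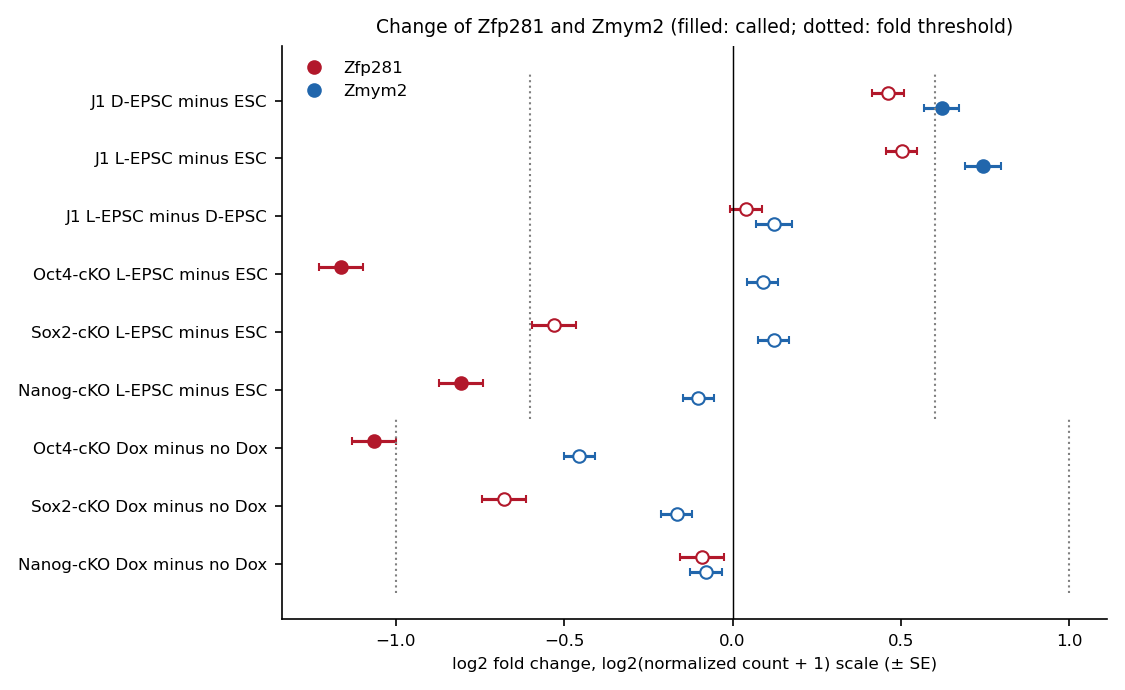
Log2 fold changes of Zfp281 (red) and Zmym2 (blue) with their SE in 9 comparisons. Filled points passed the adjusted p and the fold threshold drawn as dotted lines. Zfp281 lies at 0.46 and 0.50 in J1 EPSCs against ESCs and between -1.16 and -0.53 in the tet-off conversions, while Zmym2 lies between -0.10 and 0.12 in the latter.

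Markers of cell state moved in the same conversions. The 8 pluripotency markers summed to 69394 to 69882 in Oct4-cKO ESCs and 44486 to 45542 in their untreated L-EPSCs, to 59693 to 60268 and 49859 to 50192 in the Sox2-cKO line, and to 83000 to 84182 and 55441 to 55803 in the Nanog-cKO line. The 10 trophoblast markers summed to 1815 to 1932 and 4509 to 4646 in the Oct4-cKO, 5733 to 5791 and 2030 to 2071 in the Sox2-cKO and 655 to 679 and 628 to 699 in the Nanog-cKO line. The 8 primitive endoderm markers summed to 2429 to 2467 and 2502 to 2648, 4109 to 4189 and 2500 to 2546, and 2509 to 2523 and 938 to 963 in the same order. A sum follows its most abundant markers. Of these 8, 5 were called higher and 1 lower in Oct4-cKO, 2 higher and 5 lower in Sox2-cKO and 3 higher and 2 lower in Nanog-cKO cells. Of the 10 trophoblast markers, 5 were called higher in Oct4-cKO, 4 lower in Sox2-cKO, and 4 higher and 1 lower in Nanog-cKO cells. The 3 conversions call 28.4%, 19.6% and 26.9% of all genes. Pluripotency sums were thus lower in L-EPSCs of all 3 lines, while the trophoblast sums were higher in the Oct4-cKO and lower in the Sox2-cKO L-EPSCs and overlapped in the Nanog-cKO line. Their part in the conversion differences of Zfp281 and Zmym2 was not tested.

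The size of the conversion effect was compared between lines with interaction terms of the same fit. For Zfp281 the effect in Oct4-cKO cells was more negative than in Sox2-cKO cells by 0.63 on the log2 scale (adjusted p = 0.00010), in a comparison where 20.2% of all genes differ. The Oct4-cKO effect differed from the Nanog-cKO effect by -0.35 (adjusted p = 0.0090, 25.8% of genes), and without untreated Oct4-cKO L-EPSC replicate 1 by -0.28 (adjusted p = 0.060). The Sox2-cKO effect differed from the Nanog-cKO effect by 0.28 (adjusted p = 0.037, 25.5% of genes). This last difference lost its call when any 1 of 7 of the 8 libraries involved was left out, all but untreated Sox2-cKO L-EPSC replicate 2, with values of 0.22 to 0.29.

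For Zmym2 the conversion effect of the Nanog-cKO line lay below those of the Oct4-cKO line, by 0.19 (adjusted p = 0.043), and of the Sox2-cKO line, by 0.22 (adjusted p = 0.018). The first of these was lost without any 1 of its 8 libraries. The second was lost without untreated Nanog-cKO L-EPSC replicate 2 (0.22), Sox2-cKO ESC replicate 2 (0.17) or untreated Sox2-cKO L-EPSC replicate 1 (0.20). The Oct4- and Sox2-cKO effects on Zmym2 differed by -0.034 (adjusted p = 0.80), or by 0.017 without Sox2-cKO ESC replicate 2.

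With Dox, Zfp281 fell in Oct4-cKO L-EPSCs. These comparisons use the same untreated L-EPSC libraries as the conversions. The Dox-treated Oct4-cKO libraries had 397 and 355 normalized counts against 748 and 827 without Dox, and fell by 1.06 on the log2 scale (SE 0.065, adjusted p = 7.6e-10). This passed the threshold of 1, as 19.3% of all genes did, but without Dox-treated replicate 2 or untreated replicate 2 the differences of -0.98 and -0.99 did not. The Dox-treated Sox2-cKO libraries had 530 and 576 against 921 and 851, a difference of -0.68 (adjusted p = 2.7e-07) inside the threshold, in a comparison with 15.1% of genes called. The Dox-treated Nanog-cKO libraries had 935 and 868 against 949 and 972, and the difference of -0.092 (adjusted p = 0.38) was not called, while 5.39% of genes were. Dox-treated cells thus kept 47.8%, 62.4% and 93.9% of the untreated L-EPSC mean, and 21.4%, 43.2% and 53.6% of the ESC mean of their line.

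Zmym2 was called with Dox in none of the 3 lines. It had 1260 and 1174 in Dox-treated Oct4-cKO L-EPSCs against 1651 and 1684 without Dox, a difference of -0.45 (adjusted p = 4.3e-07). In the Sox2-cKO line it had 1268 and 1211 against 1417 and 1364, a difference of -0.17 (adjusted p = 0.0085). In the Nanog-cKO line it had 1621 and 1713 against 1769 and 1751, a difference of -0.079 (adjusted p = 0.27). The treated libraries lay below the untreated ones in all 3 lines, and none of the differences reached the fold threshold. The treated cells kept 73.0%, 89.1% and 94.7% of the untreated mean.

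The Dox effect on Zfp281 differed between all 3 pairs of lines. It was more negative in Oct4-cKO than in Nanog-cKO cells by 0.97 on the log2 scale (adjusted p = 3.5e-07), where 33.3% of all genes differ. Between Sox2- and Nanog-cKO cells it differed by -0.59 (adjusted p = 0.00011, 29.4% of genes), and between Oct4- and Sox2-cKO cells by -0.38 (adjusted p = 0.0050, 24.5% of genes). The last was not called when the fit held only the groups compared (adjusted p = 0.10). On Zmym2 the Dox effect in Oct4-cKO cells differed from that in Nanog-cKO cells by -0.38 (adjusted p = 0.00024) and from that in Sox2-cKO cells by -0.29 (adjusted p = 0.0033), and the Sox2- and Nanog-cKO effects differed by -0.087 (adjusted p = 0.38).

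Markers of trophoblast moved with Dox in the same lines. Of 10 trophoblast markers, 7 were called higher with Dox in Oct4-cKO, 8 in Sox2-cKO and 1 in Nanog-cKO cells, where 8.53%, 7.79% and 2.80% of all genes were called higher. Their summed normalized counts were 29314 to 29640 with Dox against 4509 to 4646 without in the Oct4-cKO line. In the Sox2-cKO line they were 12327 to 12365 against 2030 to 2071, and in the Nanog-cKO line 1023 to 1036 against 628 to 699, with Elf5 at or under 3 reads in every Nanog-cKO library. Of 8 primitive endoderm markers, 1 was called higher and 3 lower in Oct4-cKO, 2 higher and 3 lower in Sox2-cKO and 1 lower in Nanog-cKO cells. All 8 pluripotency markers were called lower with Dox in Oct4- and Sox2-cKO cells and 1 of 8 in Nanog-cKO cells. In either direction 19.3%, 15.1% and 5.39% of all genes were called in the 3 lines. The part of these cell states in the Dox differences of Zfp281 and Zmym2 was not tested.

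Ordered by mean over the tet-off groups, Zfp281 was highest in the 3 ESC groups (1760 ± 14.9 in Oct4-cKO, 1681 ± 7.08 in Nanog-cKO and 1279 ± 1.75 in Sox2-cKO cells, SD, n = 2), and lowest in the Dox-treated Sox2-cKO (553 ± 32.0) and Oct4-cKO (376 ± 29.8) L-EPSCs. Among neighbours in this order, Dox-treated Nanog-cKO (902 ± 47.8) and untreated Sox2-cKO (886 ± 49.9) L-EPSCs had overlapping ranges. For Zmym2 the 3 Nanog-cKO groups were among the 4 highest, from 1888 ± 2.75 in ESCs to 1667 ± 65.5 with Dox. Its ranges overlapped between untreated Oct4-cKO and Dox-treated Nanog-cKO L-EPSCs, between Sox2-cKO ESCs and Dox-treated Sox2-cKO L-EPSCs, and between the latter and Dox-treated Oct4-cKO L-EPSCs.

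Per kb of exon the 2 genes could be set against each other within a library. In J1 cells Zfp281 exceeded Zmym2, with mean ratios of 1.54 ± 0.030 in ESCs, 1.39 ± 0.14 in D-EPSCs and 1.31 ± 0.043 in L-EPSCs. In Oct4-cKO cells the mean ratio was 1.14 ± 0.0012 in ESCs, 0.479 ± 0.027 in untreated L-EPSCs and 0.313 ± 0.0092 with Dox. In Sox2-cKO cells the 3 mean ratios were 1.02 ± 0.052, 0.646 ± 0.019 and 0.453 ± 0.041. The Nanog-cKO ratios were 0.902 ± 0.0025, 0.553 ± 0.013 and 0.549 ± 0.051, and here the treated and untreated ranges overlapped. Zmym2 was thus the more abundant of the pair per kb in all 12 tet-off L-EPSC libraries.

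**Figure D3:**
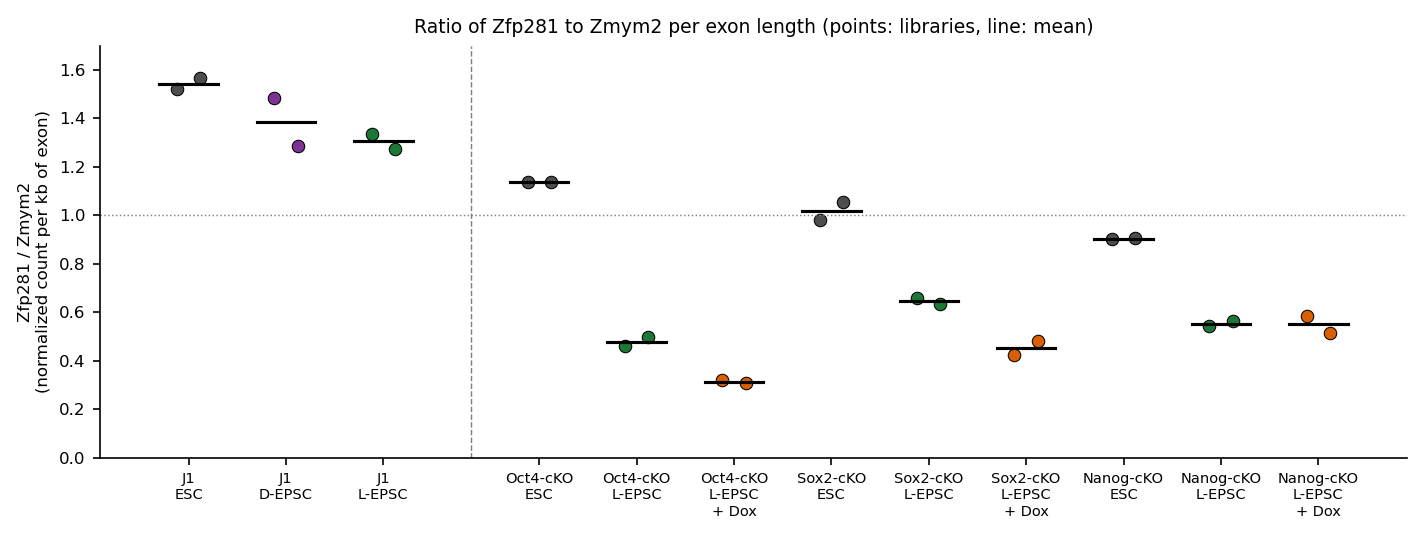
Ratio of Zfp281 to Zmym2, each as normalized count per kb of exon, in the 24 libraries (points) with the group mean (black line); the dotted line marks equal levels. The L-EPSC groups of the tet-off lines lie between 0.313 and 0.646 and the J1 groups between 1.31 and 1.54.

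Per kb of exon, Zfp281 ranged over the group means from 274 to 389 in the J1 table and from 76.2 to 356 in the tet-off table, and Zmym2 from 178 to 298 and from 243 to 377. Qrich1, a relative of the MYM proteins, had the highest level of the MYM family in 10 of the 12 groups, with 558 to 632 in J1 cells. In the untreated and the Dox-treated Nanog-cKO L-EPSCs Zmym2 was the highest. Zmym1 ranged from 296 to 385 and Zmym4 from 191 to 222 in J1 cells, and Zmym3, Zmym5 and Zmym6 stayed at or below 145. Zfp148, the closest relative of Zfp281 in sequence, ranged from 67.3 to 102 in J1 cells and from 54.3 to 121 in tet-off cells. Its log2 differences in J1 EPSCs were -0.60 and -0.58 (D-EPSCs and L-EPSCs against ESCs, adjusted p = 4.0e-05 and 4.7e-05), and with Dox 0.30 in Oct4-cKO and 0.79 in Sox2-cKO cells (adjusted p = 0.0016 and 8.8e-08), none of them called. Of these 7 relatives, Zmym3 was called lower in D-EPSCs than in ESCs (-0.69) and higher in L-EPSCs when set against D-EPSCs (0.62). These 2 comparisons call 20.7% and 13.4% of all genes. With edgeR, DESeq2, TMM scaling or a pseudocount of 0.1, 2 relatives in place of 1 were called in D-EPSCs against ESCs. This count also moved without ESC replicate 1 or D-EPSC replicate 2. Zmym1 was called lower after conversion in the Oct4-cKO (-0.85) and Nanog-cKO (-0.89) lines, and no relative was called with Dox. At a Dox threshold of 0.6 the count in Sox2-cKO cells became 1 in place of 0. In the Oct4-, Sox2- and Nanog-cKO lines 28.4%, 19.6% and 26.9% of all genes were called after conversion and 19.3%, 15.1% and 5.39% with Dox. The Oct4-cKO conversion had 2 relatives called without untreated L-EPSC replicate 1, and the Sox2-cKO conversion 1 in place of 0 without either ESC library or untreated L-EPSC replicate 1.

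Of the 13 genes of NuRD, the chromatin-remodelling and deacetylase complex that Zfp281 recruits, none was called between D-EPSCs and ESCs and 1 between L-EPSCs and ESCs (Mbd2, a methyl-CpG binding protein, at -0.61), which was lost without ESC replicate 1 or without either L-EPSC library. After conversion 2 were higher and 3 lower in Oct4-cKO cells, among them Hdac1, a histone deacetylase, at -1.20, and without untreated replicate 2 these 5 calls became 3. In Sox2-cKO cells 1 was lower, and in Nanog-cKO cells 1 was higher and 1 lower. With Dox, Rbbp7, a histone chaperone subunit, was called higher in Oct4-cKO (1.87) and Sox2-cKO cells, and so was Mbd2 (1.47 and 1.41). Hdac2, another deacetylase, was called lower in Sox2-cKO cells (-1.02), and no NuRD gene was called in Nanog-cKO cells. Of all genes, 20.7% and 20.3% were called in J1 D-EPSCs and L-EPSCs against ESCs. In the Oct4-, Sox2- and Nanog-cKO lines 28.4%, 19.6% and 26.9% were called after conversion and 19.3%, 15.1% and 5.39% with Dox. At a Dox threshold of 0.6 the NuRD count in Oct4-cKO cells became 6 in place of 2. The remodeller Chd4 had log2 differences of 0.0046 and -0.13 in J1 D-EPSCs and L-EPSCs against ESCs and of -0.80 with Dox in Oct4-cKO cells, and was not called in any of the 9 comparisons.

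Of the 10 LSD1-CoREST genes, which serve Zmym2, 1 was called higher and 1 lower in each J1 EPSC against ESCs. After conversion 4 were called lower in Oct4-cKO cells, 1 higher and 2 lower in Sox2-cKO cells and 1 higher and 3 lower in Nanog-cKO cells. These conversions call 28.4%, 19.6% and 26.9% of all genes, and the J1 comparisons 20.7% and 20.3%. Rcor2, a CoREST scaffold of pluripotent cells, was called lower in all 3 lines (-1.64, -0.64 and -1.22), and Kdm1a, the LSD1 demethylase itself, in Oct4-cKO (-0.75) and Sox2-cKO (-0.60) cells. With Dox, Rcor1, another scaffold, was called higher in Sox2-cKO cells (1.18) and Hdac2 lower (-1.02), Gse1 was called lower in Nanog-cKO cells (-1.27), and no gene of the list was called in Oct4-cKO cells. With Dox 19.3%, 15.1% and 5.39% of all genes were called in the Oct4-, Sox2- and Nanog-cKO lines. At a Dox threshold of 0.6 the list counts became 4 in Oct4-cKO and 5 in Sox2-cKO cells. Without 1 library, untreated Sox2-cKO replicate 2, the 3 calls in the Sox2-cKO conversion became 1. Without Dox-treated replicate 2 of the Oct4-cKO or the Sox2-cKO line, the Dox calls became 1 in place of 0 and 1 in place of 2. Of the 12 PRC1.6 genes, 1 was called lower in J1 D-EPSCs, and 1 higher and 1 lower in J1 L-EPSCs. After conversion 2 were higher and 1 lower in Oct4-cKO, 1 higher and 1 lower in Sox2-cKO and 4 higher and 1 lower in Nanog-cKO cells. Among them L3mbtl2, a methyl-lysine reader, was called lower after conversion in all 3 lines (-1.40, -0.61 and -0.91) and Yaf2 higher (1.23, 0.66 and 1.07), and in J1 cells Wdr5 was lower in both EPSCs (-1.05 and -0.93). With Dox, Mga was called lower in Oct4-cKO cells (-1.24) and E2f6 higher in Sox2-cKO cells (1.04), the latter not without untreated replicate 2. At a Dox threshold of 0.6 the PRC1.6 counts became 5 in Oct4-cKO and 4 in Sox2-cKO cells. The 2 PRC1.6 calls of the Sox2-cKO conversion became 0 without ESC replicate 2 and 1 without untreated L-EPSC replicate 1, and the 2 of J1 L-EPSCs became 1 without either ESC library or L-EPSC replicate 1. The list medians lay between -0.32 and 0.25 for LSD1-CoREST and between -0.27 and 0.25 for PRC1.6, and the median of all genes tested between 0 and 0.013.

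The 14 genes of the Zfp281 target and partner list were called in both directions in J1 EPSCs and lower alone in the tet-off conversions. Against J1 ESCs, 6 were called higher and 4 lower in D-EPSCs (list median 0.37) and 3 higher and 4 lower in L-EPSCs (0.024). After tet-off conversion none was called higher in any line, while 9 of 14 were called lower in Oct4-cKO (median -0.97), 10 in Sox2-cKO (-1.07) and 8 in Nanog-cKO cells (-0.94). Of all genes tested, 15.4%, 11.6% and 14.7% were called lower in these 3 conversions. With Dox, 1 was called higher and 8 lower in Oct4-cKO cells (median -2.29), 2 higher and 10 lower in Sox2-cKO cells (-1.37) and 1 higher and 1 lower in Nanog-cKO cells (-0.068). In either direction the 2 J1 comparisons with ESCs call 20.7% and 20.3% of all genes, and the Dox comparisons 19.3%, 15.1% and 5.39%.

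Named members follow by role. Lin28a, an RNA-binding pluripotency factor, was called higher in J1 D-EPSCs (2.20) and L-EPSCs (2.49) and lower after conversion in all 3 tet-off lines (-2.08 in Oct4-cKO, -1.17 in Sox2-cKO and -1.55 in Nanog-cKO cells). The de novo DNA methyltransferase Dnmt3a was called higher in both J1 EPSCs (2.09 and 1.92) and lower after conversion in Oct4-cKO (-0.68) and Sox2-cKO (-0.91) cells, and with Dox it was called higher in Sox2-cKO cells (1.07). Its cofactor Dnmt3l was higher in J1 EPSCs (2.14 and 2.67) and lower after conversion in Sox2-cKO (-1.33) and Nanog-cKO (-2.59) cells. Tet1, a methylcytosine dioxygenase and Zfp281 partner, had J1 differences of 0.33 and 0.50, inside the threshold, and was called lower after conversion in all 3 lines (-1.66, -1.48 and -1.72) and with Dox in Oct4-cKO (-2.93) and Sox2-cKO (-1.06) cells.

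Tet2, the dioxygenase that Zfp281 represses, was called lower in J1 D-EPSCs (-1.18) and L-EPSCs (-0.78) and after conversion in the Oct4- (-1.26), Sox2- (-1.75) and Nanog-cKO (-2.41) lines. Nodal, the ligand of its signalling pathway, was called lower in J1 D-EPSCs (-0.94) and L-EPSCs (-0.62), after all 3 conversions (-2.58, -1.28 and -1.73) and with Dox in Oct4-cKO (-2.40) and Sox2-cKO (-1.37) cells. Nanog itself was called lower in J1 D-EPSCs (-1.85) and L-EPSCs (-1.17) and with Dox in all 3 lines (-3.41, -3.48 and -1.52). After conversion it was called lower in Nanog-cKO cells alone (-0.75), where its reads include those of the transgene. The other Nodal pathway genes Lefty1, Lefty2 and Tdgf1 were called lower with Dox in both Oct4- and Sox2-cKO cells, with Tdgf1 at -6.04 and -2.38. In J1 D-EPSCs against ESCs Lefty2 was called lower (-3.33) and Lefty1 higher (1.29). Zic2 was called higher in J1 D-EPSCs (1.56). With Dox it was called lower in Oct4-cKO (-3.32) and Sox2-cKO (-2.06) and higher in Nanog-cKO cells (1.37). Of the 11 list genes with a RefSeq promoter window, 4 hold the Zfp281 core letters in at least 1 window (Nanog, Dnmt3a, Dnmt3l and Lin28a), beside 9.28% of all genes, a description of letters on a short list.

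**Figure D4:**
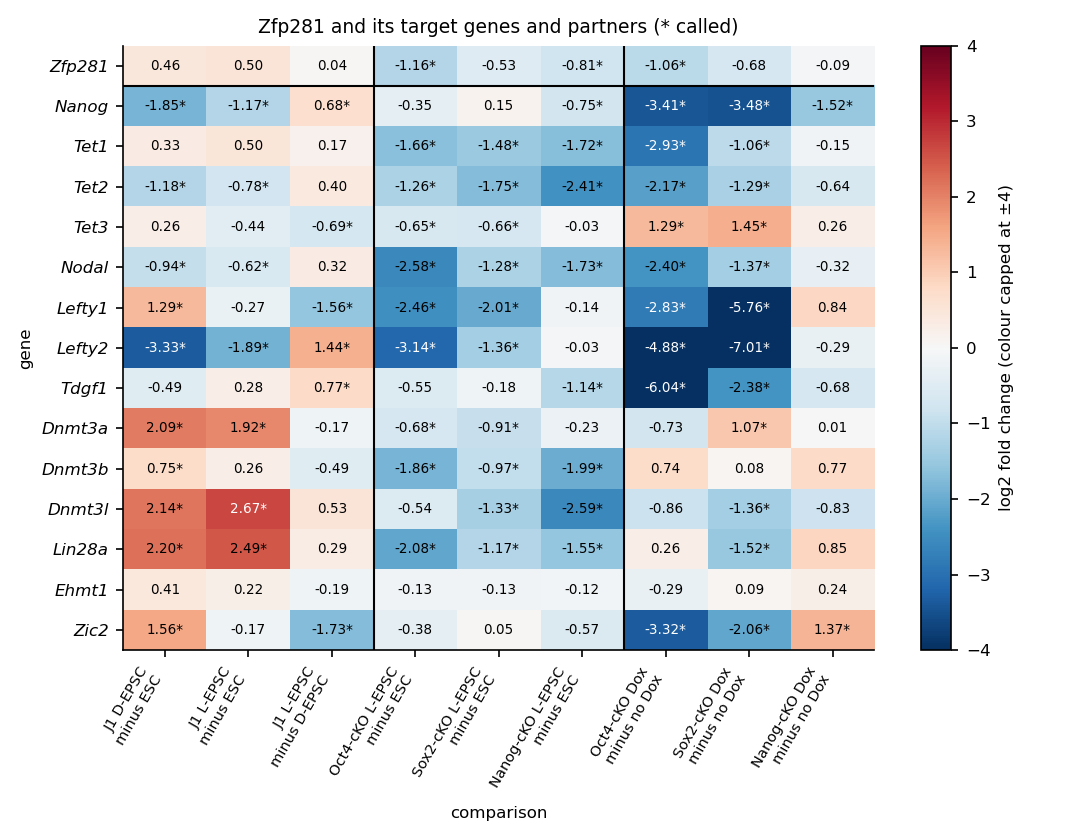
Log2 fold changes of Zfp281 (top row) and of its 14 listed target genes and partners in 9 comparisons, J1 states on the left, tet-off conversions in the middle and Dox effects on the right. Red is higher, blue is lower, and an asterisk marks called genes. Lin28a, Dnmt3a and Dnmt3l are red in both J1 EPSCs against ESCs (1.92 to 2.67), and Lin28a is called lower in all 3 conversions.

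Of 10 further genes known to hold back the 2C state, none was called higher in any of the 9 comparisons. Among all genes tested, 1033 to 2316 of 21533 were called higher in the J1 comparisons and 672 to 3118 of 24007 in the tet-off comparisons. The absence of higher calls in so short a list is therefore not read as a result. Setdb1, a histone methyltransferase, was called lower in J1 D-EPSCs (-0.67) and L-EPSCs (-0.81) and after conversion in Oct4-cKO (-0.61) and Nanog-cKO (-0.87) cells. Uhrf1, which guides maintenance DNA methylation, was called lower in both J1 EPSCs (-1.04 and -0.76). Trim28, the co-repressor of KRAB zinc finger proteins, was called lower after conversion in Oct4-cKO (-1.34) and Nanog-cKO (-1.42) cells and with Dox in Oct4-cKO (-1.09) and Sox2-cKO (-1.40) cells. Rif1 was called lower in all 3 conversions (-1.12, -0.72 and -1.47). In either direction 20.7% and 20.3% of all genes were called in J1 D-EPSCs and L-EPSCs against ESCs. In the Oct4-, Sox2- and Nanog-cKO lines 28.4%, 19.6% and 26.9% were called after conversion and 19.3%, 15.1% and 5.39% with Dox. At a Dox threshold of 0.6 the list count became 4 in place of 1 in Oct4-cKO and 6 in place of 1 in Sox2-cKO cells.

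The 2C genes themselves, 10 of 13 of which the tables list, had few reads. How reads that fit several of their near-identical copies were counted is not given in the sources used here. Together they had 1 and 2 reads in the J1 ESC libraries, 26 and 27 in D-EPSCs and 32 and 49 in L-EPSCs. In the tet-off lines the summed normalized counts were 984 to 1075 in Oct4-cKO ESCs and 333 to 408 in their L-EPSCs, 367 to 395 and 87.8 to 105 in Sox2-cKO cells, and 88.9 to 94.2 and 165 to 178 in Nanog-cKO cells. They were thus higher in ESCs than in L-EPSCs of the Oct4- and Sox2-cKO lines and lower in ESCs in the Nanog-cKO line and in J1 cells. With Dox they were 510 to 528, 152 to 156 and 144 to 163. Zscan4c had no read in either J1 ESC library while its mean normalized count was 6.51 in D-EPSCs and 13.5 in L-EPSCs. In Oct4-cKO cells its mean was 334 in ESCs, 39.7 in untreated L-EPSCs and 47.5 with Dox. The call counts were 3 higher in J1 D-EPSCs, 4 higher in J1 L-EPSCs, 3 lower in Oct4-cKO, 7 lower in Sox2-cKO and 4 higher in Nanog-cKO conversions. With Dox they were 1 higher in Oct4-cKO, none in Sox2-cKO and 1 lower in Nanog-cKO cells. Of all genes, 20.7% and 20.3% were called in J1 D-EPSCs and L-EPSCs against ESCs. In the Oct4-, Sox2- and Nanog-cKO lines 28.4%, 19.6% and 26.9% were called after conversion and 19.3%, 15.1% and 5.39% with Dox. At a Dox threshold of 0.6 the Sox2-cKO count of 2C genes became 2 in place of 0. Single libraries decided several of the 2C gene counts. The J1 D-EPSC count became 1 without either ESC library or D-EPSC replicate 2, and the J1 L-EPSC count 1 without either ESC library. The Sox2-cKO conversion count became 4 without ESC replicate 2 or untreated L-EPSC replicate 2. With Dox the Oct4-cKO count became 0 without treated replicate 2 or untreated replicate 1 and 2 without untreated replicate 2. The Sox2-cKO count became 2 without untreated replicate 1 and 1 without untreated replicate 2, and the Nanog-cKO count became 0 without treated replicate 2 or either untreated library. With only the groups compared in the fit, the Sox2-cKO and Nanog-cKO conversion counts were 3 and 0.

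The genes most like each repressor were sought among the 10029 genes whose mean normalized count reached 100, by Pearson correlation of log2 values over the 18 tet-off libraries. These libraries form 9 groups of 2 and share their normalization, so the r values are descriptions. For Zfp281 they included Nodal (r = 0.989), Fzd5, a Wnt receptor (0.980), Zfp219, a zinc finger factor (0.980) and Rcor2 (0.978). For Zmym2 they were Cpe, a carboxypeptidase (0.949), Ass1, an enzyme of arginine synthesis (0.920), Ccnk, a cyclin (0.919), Hal, a histidine-degrading enzyme (0.915) and Thyn1 (0.910). Over the 9 group means 4 of the 5 genes stayed among the top 5 for each repressor, and by Spearman rank 1 of 5 did for Zfp281 and 2 of 5 for Zmym2.

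Over the 6 J1 libraries some of the same pairs changed sign and others did not. The r of Zfp281 was -0.915 with Nodal, -0.931 with Fzd5, -0.754 with Zfp219 and 0.651 with Rcor2. The r of Zmym2 was -0.936 with Cpe, -0.660 with Ass1 and -0.379 with Hal, and 0.926 with Ccnk and 0.770 with Thyn1. Nodal had normalized counts of 1037 and 1093 in J1 ESCs, where Zfp281 was lowest, against 520 and 590 in D-EPSCs and 663 and 719 in L-EPSCs. In the tet-off table Nodal ran from 1284 and 1306 in Nanog-cKO ESCs down to 32.2 and 28.9 in Dox-treated Oct4-cKO L-EPSCs, where Zfp281 was lowest too. Between Zfp281 and Zmym2 themselves r was 0.592 over the 18 tet-off libraries and 0.969 over the 6 J1 libraries.

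**Figure D5:**
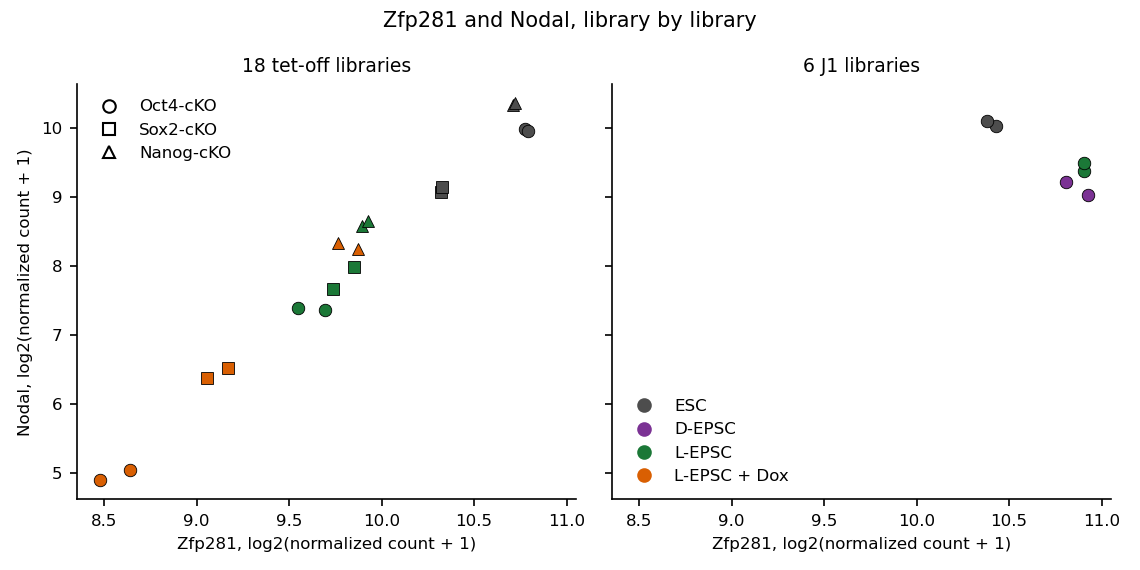
Nodal against Zfp281 in each library, both as log2(normalized count + 1), for the 18 tet-off libraries (left, r = 0.989) and the 6 J1 libraries (right, r = -0.915). Colours give the cell state and marker shapes the tet-off line. The tet-off points run along a rising line from Dox-treated L-EPSCs to ESCs, and in J1 cells the ESCs have the most Nodal and the least Zfp281.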

How the data were processed

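Poly(A) RNA of 24 libraries was read from 2 tables that the authors deposited. Per the labels and the methods, reads were trimmed with Trim Galore 0.6.4, aligned to NCBIM37 with STAR 2.7.9a, counted per gene with HTSeq 0.11.2 and divided by a DESeq2 size factor (the notes give version 4.1.1), so the deposited values are a normalized signal per gene. The strand setting of the counting is not given in the sources used here. The table coordinates belong to a later build, and NCBIM37 positions were taken by gene ID. Each value divided by what 1 read is worth in its library gave a whole number for 100% of values in the 24 columns (tolerance 0.01 read), so reads were recovered, and the branch of the plan for normalized values was used.

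The limma 3.58.1 package (R 4.3.3, eBayes with a mean-variance trend) was fitted to log2(normalized count + 1) of all groups of a table, over genes with at least 2 reads (21533 and 24007), with Benjamini-Hochberg adjustment over all of them. Folds on this scale understate low genes. Alternatives were edgeR 4.0.16 and DESeq2 1.42.0 on recovered reads, median centring, TMM scaling, a pseudocount of 0.1, a minimum mean of 10, a fit of only the groups in question, a replicate block, the other fold threshold and leaving out each library. On recovered reads edgeR called 4369 genes between J1 L-EPSCs and ESCs and 4224 with Dox in Oct4-cKO cells, against 4380 and 4637 in limma. On simulated data of the J1 L-EPSC comparison (20923 genes) limma recovered 90 of 100 genes changed 1.5-fold. Recovery was counted by adjusted p alone, and a 1.5-fold change lies inside the fold threshold. The count therefore does not give how many such genes would be called.

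The members and gene lists were chosen with earlier results of these data known. Named genes are both repressors, the switched genes, a set of list genes taken by name, all MYM relatives, per list and comparison up to 4 called genes with the largest change and a mean of at least 100, and the 5 genes most like each repressor, of which 1 is not reported here. Zscan4c and Lefty1, under that mean in some groups, were named after their values were seen. Same-numbered replicates did not deviate together (correlations of -0.028 to 0.040 between groups over both tables), so the main fit did not pair samples by number. Whether same-numbered samples were handled together is not given in the sources used here, and these correlations cannot tell. Python 3.11.15 and Matplotlib 3.10.9 were used for tables and figures.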

Additional observations from a re-analysis of the deposited data

Results flagged for a closer look

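Effects that differed between tet-off lines by an interaction term of the fit (adjusted p under 0.05) were the following. For Zfp281 the Dox effect differed by -0.97 between Oct4- and Nanog-cKO, -0.38 between Oct4- and Sox2-cKO and -0.59 between Sox2- and Nanog-cKO L-EPSCs. Its conversion effect differed by -0.35 between Oct4- and Nanog-cKO, -0.63 between Oct4- and Sox2-cKO and 0.28 between Sox2- and Nanog-cKO cells. For Zmym2 the Dox effect differed by -0.38 between Oct4- and Nanog-cKO and -0.29 between Oct4- and Sox2-cKO cells, and the conversion effect by 0.19 between Oct4- and Nanog-cKO and 0.22 between Sox2- and Nanog-cKO cells. No group has the 4 samples that a search for outlying samples needs.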

How the results depend on the processing

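Of 426 alternative values for the 30 results on Zfp281 and Zmym2, 394 kept their direction and side of the threshold, 29 lost their call, 1 gained one and 2 changed sign. With the fold threshold at 1, Zmym2 in J1 D-EPSCs (0.62) and L-EPSCs (0.74) and Zfp281 in the Nanog-cKO conversion (-0.81) lost their calls, and at 0.6 Zfp281 with Dox in Sox2-cKO cells (-0.68) gained one. With the groups compared alone, the Zfp281 Dox difference between Oct4- and Sox2-cKO cells (-0.38) lost its call. The Zmym2 conversion difference between Oct4- and Nanog-cKO cells lost its call with TMM scaling (0.18) and median centring (0.17). Leaving out 1 library gave 0.58 to 0.67 for Zmym2 in J1 D-EPSCs, -1.14 to -0.98 for Zfp281 with Dox in Oct4-cKO cells, and -0.019 to 0.10 for Zfp281 between J1 L-EPSCs and D-EPSCs, where -0.019 changed sign. For differences of conversion between lines it gave, for Zfp281, -0.43 to -0.28 (Oct4 minus Nanog) and 0.22 to 0.33 (Sox2 minus Nanog), and for Zmym2, 0.18 to 0.21 (Oct4 minus Nanog), 0.17 to 0.27 (Sox2 minus Nanog) and -0.084 to 0.017 (Oct4 minus Sox2), where 0.017 changed sign. The cause was not tested. A group then has 1 library, whose spread is assumed to be that of the others. The replicate block moved no call of either gene, and Zfp281 with Dox in Oct4-cKO cells kept -1.06. Of 816 alternative list counts, 94 moved by over 1.5 times, 31 of them with the other fold threshold, 38 with 1 library left out and 25 with another setting. They were 32 for the 2C genes, 18 for PRC1.6, 16 for the MYM family with Zfp148, 10 each for NuRD and LSD1-CoREST, 6 for the other 2C repressors and 2 for the Zfp281 targets and partners (3 in place of 6 between J1 L-EPSCs and D-EPSCs at a threshold of 1, and 7 in place of 2 with Dox in Nanog-cKO cells at 0.6). With the groups compared alone, 479 genes were called with Dox in Nanog-cKO cells (181 higher and 298 lower) against 1293 (672 and 621). In J1 cells the 2C genes rest on 1 to 49 reads per library in all.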
